A study of Mus musculus with 8 samples.

Results

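The intervals described here are the 1140 stretches of the mouse genome that the m6A consensus file of control vascular smooth muscle cells (VSMCs) lists and that overlap no interval of the consensus file after knockdown of Mettl14. Most of them still had a peak in at least 1 single list of the knockdown. They were chosen by the readout itself. An interval of the shCTR overlap file was kept when it shared no base with any interval of the shMettl14 overlap file, which left 1140 of 6706 shCTR intervals (17.0%). The other 5566 shCTR intervals, which shared at least 1 bp, are called shared below. In the reverse direction, 1001 of 6440 shMettl14 intervals (15.5%) shared no base with an shCTR interval and are called knockdown-only. Because presence and absence of peaks chose the intervals, everything taken from these peak lists is a description with no test. With 2 lists per shRNA, an exact permutation test could not have given a p below 0.333 in any case.

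The cells were primary mouse VSMCs grown out of the descending aorta of young adult C57BL/6J mice and used at low passage. They were transduced with lentivirus that carried either shCTR, a nontargeting hairpin against a plant microRNA, or shMettl14, a hairpin against Mettl14 mRNA, so both groups received virus and a hairpin. RNA fragments captured with an anti-m6A antibody (IP) and fragments before capture (input) were sequenced in duplicate (A and B) per hairpin, giving 4 IP and 4 input samples. Nothing in the sources says whether A and B came from separate cultures or animals, so their spread may be technical, and a single hairpin stands for the knockdown. The hairpin's effect on its target cannot be read from peak lists. No list held a summit in Mettl14 or Mettl3, while Wtap, another subunit of the writer, had 2 or 3 in each.

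N6-methyladenosine (m6A) is the most common internal mark of mRNA. It is written by a complex in which METTL3 is the catalytic subunit and METTL14 holds the RNA, on the A of the consensus DRACH (where D means any base but C, R a purine and H any base but G), with GGACT the most favoured form. Marks gather in long exons and around stop codons, are read by YTH-domain proteins and can change the splicing, translation and decay of a transcript. VSMCs can leave the contractile state, with its actin and myosin filaments, for a synthetic state that divides, migrates and secretes matrix, and the study asked whether m6A sits on genes of that switch.

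Each deposited overlap file could be rebuilt from the single lists. Windows of 200 bp were centred on the summits, the points of highest signal within peaks, with a fold enrichment of at least 4 over the local background. Windows that touched were merged, and a merged window was kept when both replicates contributed to it. This recipe gave 6706 of 6706 shCTR and 6440 of 6440 shMettl14 intervals exactly. A control-only interval is therefore a place where windows of both shCTR lists met and that no joint window of the 2 shMettl14 lists overlapped. It may still hold a peak in 1 shMettl14 list or in both, and even summits of at least 4-fold in both whose windows did not meet.

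The sequences below show where m6A could lie in intervals that the results return to. They are the DRACH nearest the strongest shCTR summit, in capitals, with 12 bases on either side, on the strand of the gene in GRCm38. The intervals of the first 4 had no peak in either shMettl14 list, and those of the last 4 kept a peak in 1 of them. The window of Myom1, a sarcomere M-band protein, is chr17:71126533-71126561 in the 3′ UTR.
Myom1: ggcaccattgaaGAACAcattaagggttt
Phf20l1, a reader of methylated lysine (chr15:66642471-66642499, 3′ UTR): attttaatcagaAAACTgacaatggaagt
Arhgap5, a GTPase-activating protein (chr12:52567225-52567253, coding): acttcaaatccaGGACAattggtagaatc
Zbtb10, a zinc finger repressor (chr3:9251864-9251892, coding): ctcttggctcaaGGACTtcccttggctgc
Lhx6, a LIM-homeodomain factor (chr2:36083371-36083399, 3′ UTR): gatgggtgccaaAGACCccccccccaatt
Isl1, a LIM-homeodomain factor (chr13:116299193-116299221, 3′ UTR): tatgctattcaaTGACCttaggagtactt
B9d2, a protein of the ciliary transition zone (chr7:25686421-25686449, 3′ UTR): ctgcaaggccagGAACTcccctgtggccc
Zfp36l1, a protein that binds AU-rich elements and speeds mRNA decay (chr12:80109627-80109655, coding): ctcccctaccttGGACAactcaagacgcc
Sequences were shown only for intervals with a DRACH within 50 nt of the summit. The DRACH was 0 to 38 nt from the summit in these 8 intervals. It was a GGACT in Zbtb10 alone.

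Most control-only intervals still held a peak in the knockdown. Of the 1140, 182 (16.0%) had no peak in either shMettl14 list, 615 (53.9%) had one in list A alone, 150 (13.2%) in list B alone and 193 (16.9%) in both. The missing peak was thus most often that of shMettl14 B, a list with 9256 summits against 13675 in shMettl14 A. The reverse set had much the same makeup. Of the 1001 knockdown-only intervals, 182 (18.2%) had no peak in either shCTR list, 447 (44.7%) had one in shCTR A alone, 179 (17.9%) in shCTR B alone and 193 (19.3%) in both. There too the longer list, shCTR A with 11158 summits against 8655, held most of the single peaks.

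**Figure D1:**
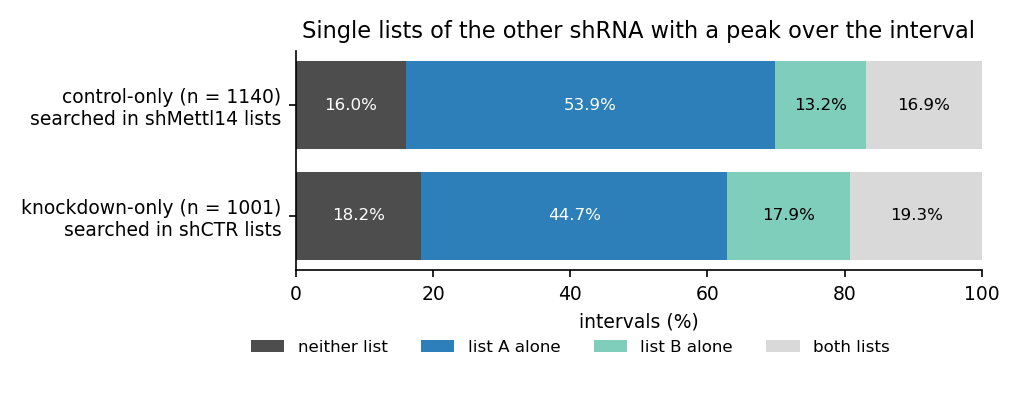
Share of intervals, in percent on the x axis, by which single lists of the other shRNA held a peak over at least 1 bp of the interval. The upper bar shows the 1140 control-only intervals searched in the shMettl14 lists and the lower bar the 1001 knockdown-only intervals searched in the shCTR lists. A peak in list A alone was the largest class in both, at 53.9% and 44.7%, and no peak in either list made up 16.0% and 18.2%.

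Some control-only intervals had a shMettl14 summit under the 4-fold minimum, or summits in both shMettl14 lists whose windows did not meet. Whether the minimum kept any interval from being shared was not tested. In shMettl14 A, 722 control-only intervals (63.3%) had a summit of at least 4-fold whose window reached the interval, 41 (3.60%) had one under 4-fold, 48 (4.21%) lay under a peak whose summit was elsewhere and 329 (28.9%) had no peak and no such window. In shMettl14 B the same 4 numbers were 212 (18.6%), 52 (4.56%), 83 (7.28%) and 793 (69.6%). In 27 intervals both shMettl14 lists had a summit of at least 4-fold near the interval, but the windows of the 2 lists did not meet. Atf3, a stress-induced transcription factor, was one of them. Its 3′ UTR interval (chr1:191170610-191171171) had 14 and 13 fragments at the summit in the shCTR lists and 20 and 8 in the knockdown lists (A first), so all 4 lists were above 4-fold.

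Some intervals lay close to the limits of the rule on either side. The coding interval of Zfp398, a zinc finger gene, ended exactly where a shMettl14 interval began, with a gap of 0 bp, and 9 control-only intervals lay within 10 bp of one. In all, 166 had a shMettl14 interval closer than 200 bp, while the median gap was 9608 bp. On the other side, a 3′ UTR interval of Emilin1, a glycoprotein of elastic fibres, counted as shared through 4 bp, the smallest overlap, and 7 shared intervals overlapped by 10 bp or less. At the fold minimum, the lowest shCTR value inside the set was 4.00 and the highest shMettl14 value left out near an interval was 3.99. There were 86 shMettl14 summits between 3.5- and 4-fold near a control-only interval.

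Control-only intervals were weak peaks in the control cells themselves. The number of IP fragments at each summit was recovered from the deposited fold enrichment and −log10 p-value. In shCTR A the median was 12 fragments (quartiles 8 and 17, highest 81) against 24 (15 and 36, highest 184) in shared intervals. In shCTR B it was 10 (7 and 14, highest 71) against 21 (14 and 33, highest 188). At 10 fragments or fewer lay 41.3% of control-only intervals in list A and 50.8% in list B, against 9.65% and 12.9% of shared ones. A summit of 10 fragments has an exact 95% Poisson interval of 4.80 to 18.4 fragments, counting error only.

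**Figure D2:**
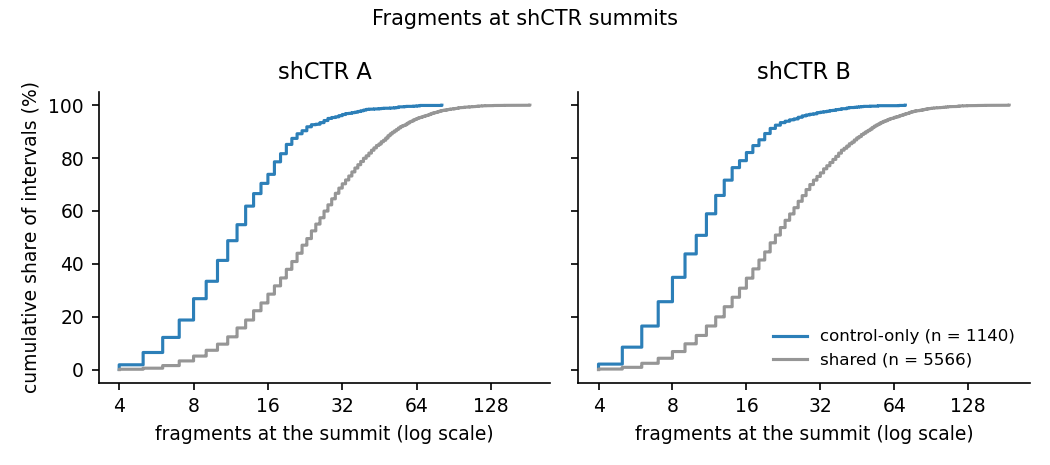
Cumulative share of intervals (y axis, percent) against IP fragments at the shCTR summit (x axis, log scale), for list A on the left and list B on the right. The control-only curve lies to the left of the shared curve in both lists, with medians of 12 and 10 fragments against 24 and 21.

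Fold enrichment gave the same order. The median was 6.73 in list A and 6.40 in list B for control-only intervals, against 10.2 and 9.77 for shared ones. Ranked by fold within each list and averaged over both, the median control-only interval stood at percentile 33.4 and the median shared interval at 66.6. The local background was also low, with a median of 0.647 and 0.656 fragments against 1.19 and 1.12. Knockdown-only intervals ranked alike in their own lists, at a median percentile of 35.7. A fold of 10 or more was reached by 118 control-only intervals in shCTR A and 54 in shCTR B.

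The share of shCTR intervals that were control-only fell with the fragments behind them. It was 50.7% of the 1001 intervals with a mean of up to 10 fragments over both lists, 26.6% from there to 15, 14.9% to 20, 5.32% to 30 and 2.32% of the 1764 intervals above 30. Intervals with no peak in either shMettl14 list made up 9.69% of the lowest group and 0.0567% of the highest, where there was 1. The knockdown-only share fell in the same way among shMettl14 intervals, from 44.7% to 0.985%. The depth of the libraries was not analysed here, so the 2 series are set side by side and not compared bin by bin.

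**Figure D3:**
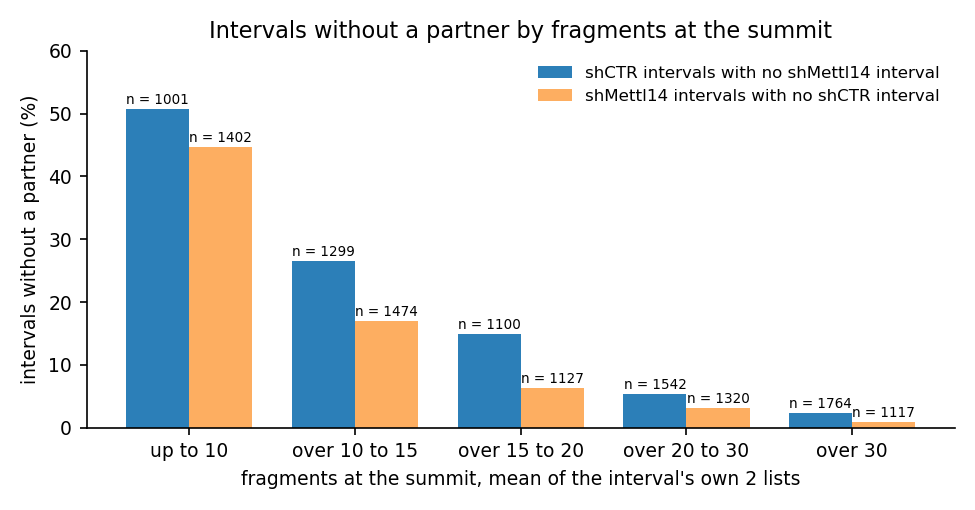
Percent of intervals without a partner in the other file (y axis) by the mean number of fragments at the summit over the interval's own 2 lists (x axis), for shCTR intervals (blue) and shMettl14 intervals (orange), with the intervals in each group above the bar. The share falls from 50.7% to 2.32% and from 44.7% to 0.985%.

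Where a shMettl14 summit lay near a control-only interval, its fragments could be set beside those of the shCTR list of the same letter, without scaling for depth. Nothing in the sources says that a letter ties the lists of both shRNAs together. In list A the median log2 ratio of shMettl14 over shCTR was -0.19 over 763 intervals, of which 471 (61.7%) were lower in the knockdown. In list B it was -0.46 over 264 intervals, of which 207 (78.4%) were lower. Shared intervals gave -0.22 with 67.5% lower in A and -0.35 with 76.9% lower in B. Among the retained summits, control-only and shared intervals therefore had nearly the same ratios in each list. Intervals without a called summit have no ratio, so these values describe only what was still called.

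The 4 classes differed little in strength. Intervals with no peak in either shMettl14 list had medians of 10 and 9 fragments in the shCTR lists, those with a peak in list A alone 12 and 11, in list B alone 10 and 10, and in both 14 and 11. Their median percentiles were 28.9, 35.6, 31.9 and 33.0. A missing peak means that no listed peak of that library overlapped the interval, and fragments below the caller's threshold are not in the lists. In 3 of the 182, a shMettl14 A summit of at least 4-fold stood beside the interval, close enough for its 200 bp window to reach it although the peak itself did not.

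Among the 182 intervals with no peak in either shMettl14 list, the highest ranked in an exon of a single gene lay in an exon of Akap1 outside the chosen transcript. Akap1 is a scaffold that anchors protein kinase A at mitochondria. The interval had 13 fragments in shCTR A and 12 in the other control list. The Myom1 interval (chr17:71126410-71126624), 142 nt after the stop codon, had 13 and 18. Myom1 was among 54 genes without a summit in either shMettl14 list.

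Further intervals of high rank lay in regulators of signalling and transcription. The Arhgap5 interval, 64 nt before the stop codon, had 20 fragments in shCTR A and 12 in the other control list. The Zbtb10 interval had 11 and 19, with a shMettl14 interval 46 bp away. In Notch2, a receptor that maintains the smooth muscle of arteries, a 3′ UTR interval (chr3:98149398-98149608) had 15 and 11, and the nearest shMettl14 interval was 678 bp away. The coding interval of Mapk7, the kinase ERK5, had 16 and 12. Among 9 of the 10 highest ranked in an exon of a single gene, shCTR summits ran from 10 to 20 fragments, with no peak listed in the knockdown for any of them.

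The strongest control-only intervals kept a peak in the knockdown. The highest ranked of all, at mean percentile 88.5, lay in an intron of Elk4, an Ets factor that partners serum response factor (chr1:132019218-132019419). It had 21 fragments in shCTR A, 20 in shCTR B and 16 in shMettl14 A, and no peak was listed in shMettl14 B. In Isl1, the interval had 20 and 13 in the shCTR lists and 30 in shMettl14 A, more than either control. In Zfp36l1, an interval 50 nt before the stop codon had 26 and 30 in shCTR and 21 in shMettl14 A. Wnt5a, a noncanonical Wnt ligand, had 16 and 14 in shCTR and 17 in shMettl14 A at 118 nt before the stop codon (chr14:28522721-28522920). Each of these 4 had a summit of at least 4-fold in 3 lists and no peak in shMettl14 B.

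The reverse held in Lhx6, where shMettl14 A had no peak. Its 3′ UTR interval had 11 and 22 fragments in shCTR and 10 in shMettl14 B. Cyb5rl, a cytochrome b5 reductase-like gene, had 13 and 15 in shCTR and 8 in shMettl14 B at 13 nt after the stop codon. Nme7, a nucleoside diphosphate kinase family member, had an intronic interval with 19 and 19 in shCTR and 7 and 7 in the knockdown. Nme7 was the only one of the 10 highest ranked intervals with a shMettl14 peak to keep one in both lists. Both values were below both controls, without scaling for depth.

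**Figure D4:**
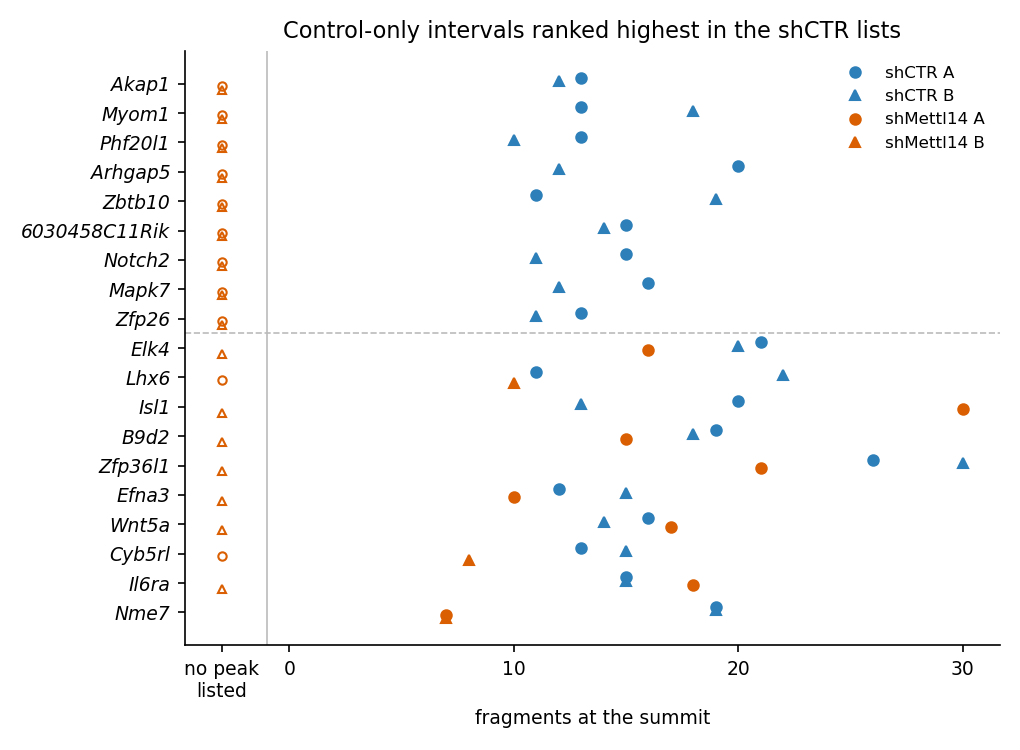
Fragments at the summit (x axis) in the 4 lists for 9 of the 10 control-only intervals ranked highest among those without a shMettl14 peak in an exon of a single gene (above the dashed line) and the 10 ranked highest with one in any part (below it), shown by gene. Blue marks shCTR and orange shMettl14, circles list A and triangles list B, and open marks on the left stand for no peak listed. Above the line all shMettl14 marks are open. Below it 9 of 10 intervals have 1 open mark and Nme7 has none.

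Placed on transcripts, control-only intervals lay mainly in coding sequence and 3′ UTRs, like other m6A peaks, and more often in introns than shared intervals. Coding sequence held 533 (46.8%), against 58.2% of shared intervals. The 3′ UTR held 295 (25.9%), against 26.7%. Introns held 127 (11.1%), against 3.47%, and sequence outside genes 58 (5.09%), against 2.52%. The 5′ UTR held 30 (2.63%), noncoding genes 30 (2.63%), exons of coding genes outside the chosen transcript 60 (5.26%), and 7 lay in several genes. By the summit of each shCTR list alone, the intron share was 10.9% in A and 11.6% in B, the coding share 46.9% and 47.3%, and the 3′ UTR share 26.2% and 25.2%. Both summits lie in the same intervals, so these shares show how far the placing depends on the summit used and not the spread between replicates.

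Knockdown-only intervals had nearly the same spread, with 45.5% in coding sequence, 11.4% in introns and 7.29% outside genes. The larger intron share was thus seen in the intervals of either file without a partner in the other. Among shCTR intervals split into 4 groups of equal size by mean percentile, in the weakest group 11.7% of 707 control-only and 5.26% of 970 shared intervals were intronic. In the next group the shares were 8.45% of 343 and 4.13% of 1333, in the third 15.9% of 82 and 3.45% of 1594, and in the strongest 2 of 8 intervals and 1.92% of 1669. The control-only share was the higher in each group, with few control-only intervals in the stronger ones. Of the 182 intervals with no peak in either shMettl14 list, 38.5% lay in coding sequence, 28.0% in 3′ UTRs, 15.4% in introns and 8.24% outside genes.

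**Figure D5:**
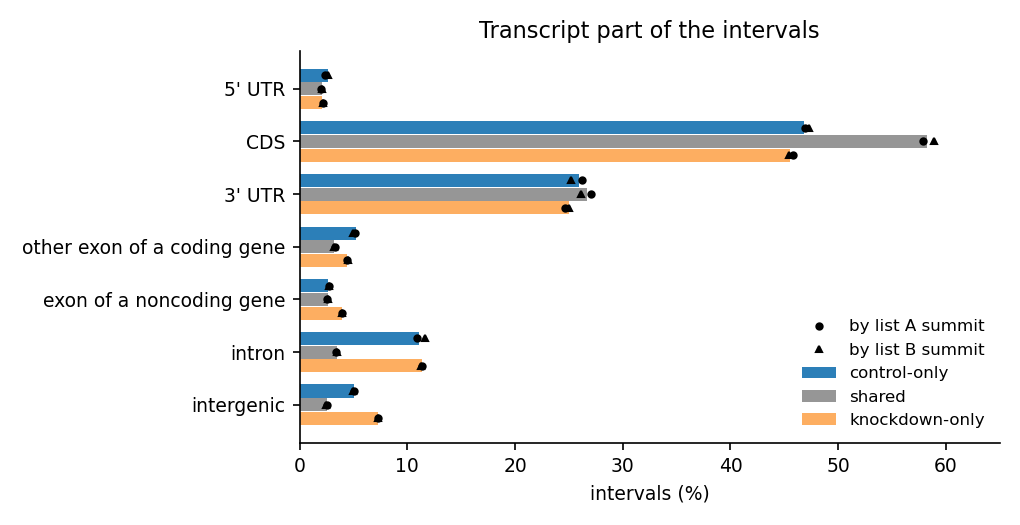
Share of intervals (x axis, percent) by transcript part for control-only (blue), shared (grey) and knockdown-only (orange) intervals, with the shares by the summits of list A (circle) and list B (triangle) of the same shRNA. Introns hold 11.1% of control-only and 11.4% of knockdown-only intervals and 3.47% of shared ones, and coding sequence holds 46.8%, 45.5% and 58.2%.

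The stop codon and the motif stood near control-only summits more often than near other positions of the same transcripts. Of 858 placed in a single coding transcript, 216 (25.2%) had the summit within 200 nt of the stop codon, with 25.7% by shCTR A and 25.4% by shCTR B. Over all positions of the same transcripts, 10.3% are that close. Shared intervals gave 28.5%, with 9.78% of positions. The last exon held 64.5% of control-only and 64.3% of shared summits, and 97.2% and 98.4% lay in exons of at least 400 nt.

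GGACT on the gene's strand, within 50 nt of the summit, was found in 190 of the 858 intervals (22.1%), with 21.6% by shCTR A and 21.8% by shCTR B. In shared intervals it was found in 25.7%. Windows of the same size over all positions of the same transcripts hold it in 10.9% and 11.1%. GGACT is one of the forms of DRACH, so the searches overlap. DRACH stood near 95.8% of control-only and 97.2% of shared summits, against 86.9% of positions for each. Within the weakest of these 4 groups GGACT was near 19.9% of control-only and 19.8% of shared summits. Control-only intervals with no peak in either shMettl14 list had GGACT near 15.9% and the stop codon near 31.7% of 126 summits.

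Most genes with a control-only interval still had a summit in at least 1 single shMettl14 list, anywhere in the gene, introns included. Of 3879 genes with an shCTR interval, 962 (24.8%) had at least 1 control-only interval, and 917 of them were protein coding. In 466 (48.4%) of the 962 another shCTR interval was shared. In the other 496 all shCTR intervals were control-only, and 445 genes had no shMettl14 interval at all. Of these 445, 391 still had a summit in a shMettl14 list and 54 had none. Of the 962 genes, 873 had 1 control-only interval, 79 had 2 and 10 had 3 or more.

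Of the 10 genes with 3 or more, Ahnak and Plec, which encode giant cytoskeletal scaffolds, the atypical cadherin Fat1 and the spectraplakin Macf1 had many intervals in all. Ahnak had 4 control-only of 23 intervals. In the one at chr19:9009659-9009966 all lists had a summit, with 54 and 44 fragments in shCTR and 45 and 38 in the knockdown. The fold in shMettl14 A was 3.94 and in the other 3 lists 4.04, 4.72 and 5.26, so 1 list lay just under the 4-fold minimum. A Plec interval had a fold of 3.99 in shMettl14 A and a Fat1 interval 3.97. Windows were rebuilt without the minimum for the set as a whole, and whether those of both knockdown lists met at these places was not looked up. Macf1 had 3 of 17, in an intron and in exons outside the chosen transcript, with 13 to 24 fragments in shCTR. The intronic one, with 15 and 13, had no peak in either shMettl14 list.

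Bcar1, the adaptor p130Cas of focal adhesions, had 5 control-only of 6 intervals, the most of any gene. In 4 of them list A of the knockdown had a summit of at least 4-fold. The 3′ UTR interval, 145 nt after the stop codon, had 27 fragments in shCTR A, 21 in shCTR B and 23 in shMettl14 A, with no peak in shMettl14 B. The interval 121 nt before the stop codon (chr8:111710897-111711105) had 22 and 21 in shCTR and no peak in either shMettl14 list. Nfe2l1, a transcription factor of the proteasome response, had 3 of 6, and 2 of these had no shMettl14 summit, with 29 and 28 fragments in shCTR for one and 26 and 24 for the other. Those are high numbers for control-only intervals, at folds of 4.18 and 4.48, and 4.49 and 4.67.

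In 3 of these 10 genes all shCTR intervals were control-only. P2rx7, an ATP-gated channel, had 3 of 3, with 6 to 14 fragments in the shCTR lists, summits of list A for 2 of them and no peak in shMettl14 B for any. Phf20l1 had 3 of 3, of which the interval whose sequence is given above had 13 and 10 fragments in shCTR and no peak in the knockdown. Pcdh1, a protocadherin, had 4 of 4, with 6 to 21 fragments in shCTR and a summit in a shMettl14 list for 3 of them. Lmtk3, a membrane kinase, had 3 of 4.

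Among genes of the contractile apparatus, 7 of 22 shCTR intervals were control-only (31.8%, beside 17.0% of all shCTR intervals), in 6 of 9 genes with an interval (66.7%, beside 24.8% of all such genes). For Myh11, the smooth muscle myosin heavy chain, it was the gene's 1 interval, 5 nt before the stop codon (chr16:14194918-14195159), with 33 fragments in shCTR A, 10 in shCTR B and 19 in shMettl14 A and no peak in shMettl14 B. Lmod1, which nucleates actin filaments, had 19, 9 and 12 in the same lists at 10 nt after the stop codon, also without a peak in shMettl14 B, and its 4 other intervals were shared. Akap12, a scaffold of protein kinases, had 57, 31 and 34 at 76 nt after the stop codon, again without one in shMettl14 B. In these 3 intervals shMettl14 A lay between the 2 controls. In 2 further ones it lay below both, without scaling for depth. A coding interval of Akap12 (chr10:4355007-4355209) had 58 and 45 fragments in shCTR and 37 in shMettl14 A, with a peak whose summit was elsewhere in shMettl14 B. The interval of Cald1, an actin-binding regulator, had 81 and 67 in shCTR and 62 and 43 in the knockdown. Myom1 alone of the list had no peak in either knockdown list. Acta2, Tagln, Cnn1 and Smtn, which also mark smooth muscle, had no summit in any list, so the cell type could be checked on Myh11 and Lmod1 only.

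Most markers of other cell types had no summit, as did most smooth muscle markers looked up. A transcript without a summit may still be expressed. The 4 macrophage markers had no summit in any list, and of 4 fibroblast markers only Pdgfra had one, 1 in each list. Of 5 endothelial markers, Pecam1 and Cdh5 had summits in all 4 lists and none of their intervals was control-only. Kdr, the main receptor of vascular endothelial growth factor, had 1 summit in all lists but shMettl14 B, and its interval was control-only. Whether endothelial RNA differed between the samples was not tested.

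Of matrix genes, 5 of 47 intervals were control-only (10.6%, beside 17.0% of all). In Fbln2, which encodes an elastic fibre protein, the coding interval at chr6:91254343-91254549 had 64 fragments in shCTR A and 71 in its replicate, the latter the highest of the set in that list. It had 39 in shMettl14 B and no peak in shMettl14 A, and the other 5 Fbln2 intervals were shared. Col1a1, the main chain of type I collagen, had a single interval, 21 nt before the stop codon (chr11:94951487-94951696). All lists had a summit there, with 66 and 48 fragments in shCTR and 37 and 31 in shMettl14. Without scaling for depth, both knockdown values lay below both controls. Most shared intervals with a ratio were lower in the knockdown too. The local background at Col1a1 was 12.3 and 10.8 fragments in shCTR and 9.47 and 6.3 in shMettl14. The fold was 3.63 in shMettl14 A, under the 4-fold minimum, beside 4.38 in shMettl14 B and 5.04 and 4.16 in shCTR. The control-only intervals of Emilin1, Vcan and Ltbp2 each kept a summit in shMettl14 A and had no peak in shMettl14 B.

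The study names genes as losing m6A, picked on the same samples, and 8 of them were looked up. The paper scored altered m6A peaks by Fisher's exact test with a log2 fold change above 1. An interval can stay shared here and still have changed by that measure, so the shares below do not test the paper's claim. Of their 17 shCTR intervals, 3 were control-only (17.6%, beside 17.0% of all), in Fbln2, Col1a1 and Lpar2. These are 3 of the 7 genes with an interval (42.9%, beside 24.8% of all such genes). Lpar2, a receptor for lysophosphatidic acid, had its only interval 36 nt after the stop codon (chr8:69826509-69826738), with 8 and 6 fragments in shCTR and no peak in either shMettl14 list. Klf4, a pluripotency factor that drives VSMC dedifferentiation, had 4 shCTR intervals, and Pdgfrb, the receptor for PDGF-BB, had 3. None of these was control-only, nor was the 1 interval each of Col5a2 and Pdgfra. Klf4 also had 1 knockdown-only interval among its 3 shMettl14 intervals, and Col18a1 had no shCTR interval and 1 knockdown-only one.

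Receptors of growth factors and their substrates had 7 of 41 intervals control-only (17.1%), about the 17.0% of all shCTR intervals. Gab1, a docking protein of receptor tyrosine kinases, had 12 and 12 fragments in shCTR and no peak in the knockdown, and the gene had no summit in either knockdown list. Irs2, a substrate of the insulin receptor, had 3 shCTR intervals, 1 of them control-only, and 3 shMettl14 intervals. The control-only one, in the 3′ UTR, had 10 and 9 in shCTR, no peak in shMettl14 A and a peak with its summit elsewhere in shMettl14 B. Ror2, a Wnt5a receptor, had 14 and 7 in shCTR and 11 in shMettl14 A in its 3′ UTR, and 10, 5 and 17 in the same lists at a coding interval. Met, the receptor of hepatocyte growth factor, had 8 and 11 in shCTR and 12 in shMettl14 A.

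Transcription factors of VSMC plasticity had 6 of 53 intervals control-only (11.3%, beside 17.0% of all), in Elk4, Foxo4, Atf3, Fosb, Foxo1 and Fos. Foxo4, which represses contractile genes, had 14 and 13 fragments in shCTR and 13 in shMettl14 A, and none listed in shMettl14 B. Fosb, an AP-1 subunit, had 9 and 12 in shCTR and 8 in shMettl14 A. Of these intervals only that of Foxo1, in an intron, had no peak in either knockdown list. It had 8 and 9 fragments and lay 64 bp from a shMettl14 interval.

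Of intervals in the m6A machinery, 6 of 28 were control-only (21.4%, beside 17.0% of all). Ythdc1, the nuclear reader, had 2, both in exons outside the chosen transcript. The first had 20 and 11 fragments in shCTR, none listed in shMettl14 A and 10 in shMettl14 B, and the second had 12 and 9 in shCTR, 15 in shMettl14 A and none listed in shMettl14 B. The lists lacking a peak thus differed between neighbouring intervals of 1 gene. Rbm15, which recruits the writer complex to RNA, also had 2. Of the 3 shCTR intervals of Virma, the complex's scaffold, 1 was control-only. It had 10 and 9 fragments in shCTR and no peak in either knockdown list, while the gene had 3 shMettl14 intervals.

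Beside 17.0% of all shCTR intervals, in Notch, Wnt and Hippo genes 13 of 99 intervals were control-only (13.1%), in chromatin regulators 18 of 145 (12.4%), in cell cycle genes 3 of 20 (15.0%) and in TGF-β and BMP genes 2 of 41 (4.88%). None of 17 in proteases and their inhibitors was. Smad3, which carries the TGF-β signal to the nucleus, had 23 and 19 fragments in shCTR and 15 in shMettl14 A. E2f1, a factor of entry into S phase, had 14 and 22 in shCTR and 7 in shMettl14 A, with no peak in shMettl14 B. E2f3 had 11 and 16 in shCTR and 9 in shMettl14 A. In these 3 intervals the one listed knockdown value was below both controls, without scaling for depth. The intervals of Ski, a corepressor of SMADs, and E2f6, a repressor of the E2F family, had no peak in either knockdown list. Lats1, a Hippo kinase, went the other way, with 15 and 12 in shCTR and 17 in shMettl14 A. The lists differ in number of genes and in strength of their intervals, and their shares were not compared by a test.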

How the data were processed

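There were 4 IP and 4 input samples of shCTR and shMettl14 VSMCs, grouped and lettered by their titles. The authors aligned reads to mm10 (GRCm38) with STAR, filtered for unique alignments with SAMtools and ran MACS2 on each IP with its input as control. Versions and options are not given in the sources used here. The 4 deposited peak lists give, per summit, the fold enrichment of IP over local background as a ratio and −log10 of the p-value and q-value. The 2 deposited overlap files hold intervals with no value. All 6 were used.

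The fragments at each summit were solved from the deposited fold and −log10 p, and a whole number matched in 100% of them (largest error 0.000151 in −log10 p). Lists held 8655 to 13675 summits with medians of 13 to 16 fragments, which limits the precision of any single interval. Read totals were not analysed here. Overlaps (BEDTools 2.31.1, Python 3.11.15, numpy 2.4.6, pandas 2.3.3, scipy 1.17.1) needed 1 bp. Intervals were placed by the shCTR summit with the higher percentile of fold, on GENCODE M21 with 1 transcript per gene, the one with the longest coding sequence. A summit in the transcripts of several genes was left out of motif and stop codon shares. The rebuilding of intervals and the recovery of fragments were tested on simulated data, and the placing was not.

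The intervals and gene lists were chosen with earlier results of these data known. Named are the 10 control-only intervals of highest mean percentile of fold, without a shMettl14 peak and in an exon of a single gene, and the 10 highest with one, genes with at least 3, genes of preset lists (up to 4 per list), 8 genes the study names, and intervals nearest the rule's limits. Foxo1, Fos, Cald1, Cdkal1, the cell type markers and the writer genes are outside that rule and were added after their values were seen. Alternatives were other overlap rules, equal list sizes, other windows, another ranking and leaving out each list. Some items that the rule names are not reported here.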

Additional observations from a re-analysis of the deposited data

How the results depend on the processing

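The number of control-only intervals stayed between 974 and 1401 under 6 alternatives to the overlap rule or the lists, which include windows rebuilt without the 4-fold minimum (1177) and from equal numbers of top summits (1401), both chosen after seeing the data. Leaving out 1 list, so that the other stood for its shRNA, gave 335 (without shMettl14 B) to 3222 (without shCTR B), since a single list is not filtered by its replicate. The share with no peak in either shMettl14 list moved under each alternative from 16.0%. It was 28.5% when a peak had to cover 50% of the interval, 22.9% when its summit had to lie inside, 13.0% when a peak within 200 bp counted and 21.4% when only peaks with −log10 q of at least 3 counted. It was 29.1% by shMettl14 A alone and 69.9% by shMettl14 B alone. The share near the stop codon was 14.8% within 100 nt and 39.7% within 400 nt (shared intervals 14.7% and 43.1%), by the construction of the window, and 25.4% to 25.7% by single shCTR lists. GGACT was near 11.3% within 25 nt and 33.4% within 100 nt (shared 14.2% and 39.8%), and 21.6% to 21.8% by single lists. The 3′ UTR share ran from 25.2% to 28.2% and the median percentile from 29.6 to 35.3. No paired analysis was possible because nothing in the sources ties the letters A and B across shRNAs and no result came from a test, so the ratios of lists of the same letter are a description. Few fragments per summit limit what can be said of any single site, and neither input depth nor the level of the transcripts was analysed here.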

Other observations

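The control-only share of shCTR intervals differed between chromosomes from 11.2% of 241 on chromosome 16 to 22.0% of 296 on chromosome 6, with 1 of 15 on chromosome Y. The lists differ in length, and the share of a list's peaks that overlapped another list differed with the list searched. Of the 8535 shCTR A peaks, 70.8% overlapped a peak of shCTR B, 81.4% one of shMettl14 A and 68.4% one of shMettl14 B. Of the 7046 shCTR B peaks, 84.9%, 86.6% and 77.8% overlapped one of shCTR A, shMettl14 A and shMettl14 B. Of the 9061 shMettl14 A peaks, 65.5% overlapped one of shMettl14 B, 77.1% one of shCTR A and 68.3% one of shCTR B. Of the 7031 shMettl14 B peaks, 86.4%, 85.5% and 80.9% overlapped one of shMettl14 A, shCTR A and shCTR B. In shCTR A, shCTR B and shMettl14 A the largest of the 3 shares was with a list of the opposite shRNA, and in shMettl14 B with its replicate. The 54 genes with a control-only interval and no summit in either shMettl14 list had control intervals with mean percentiles of 8.93 to 69.0. The highest among them were those of Cdkal1, a tRNA-modifying enzyme, at 69.0 with 10 fragments in each shCTR list, and Myom1 at 66.8 with 13 and 18.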
